A study of Gallus gallus with 27 samples.

Results

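The proteasome is the protease complex that degrades ubiquitin-tagged proteins. Its genes were followed in 27 RNA-seq libraries of chicken (Gallus gallus) fibroblasts and of samples labelled fat. The genes were chosen by symbol, as every row of the deposited normalized table whose name is PSM, a letter from A to G and a digit. The rule took 38 of 14161 rows. PSMC3IP met it by name, but encodes a factor of homologous recombination, and its values are given apart. The other 37 genes comprised 12 of the core (PSMA1 to PSMA7, PSMB1, PSMB2, PSMB3, PSMB4 and PSMB7), 15 of the regulatory cap and 10 activators, inhibitors and assembly chaperones. PSMA8, PSMB5, PSMB6, PSMB8 to PSMB11, PSMC4, PSMD8, PSME1 and PSME2 were not analysed here. Each of the 37 passed the filter on low values in each comparison, and the lowest value of any of them in any library was 56.7 normalized reads.

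The core particle is a barrel of stacked rings. The outer rings hold alpha subunits (PSMA genes), which gate the entry, and the inner rings hold beta subunits (PSMB genes), some of which cut the substrate. The cap binds one or both ends. Its base holds a ring of ATPases (PSMC genes) that unfold the substrate, and scaffold and ubiquitin-receptor subunits (PSMD1, PSMD2 and PSMD4). Its lid holds scaffold subunits and PSMD14, the enzyme that removes the ubiquitin chain. PSMG1 to PSMG4 assist core assembly, PSMD5, PSMD9 and PSMD10 assist cap assembly, PSME3 and PSME4 are alternative activators, and PSMF1 encodes PI31, named as an inhibitor. These roles are known mainly from yeast and mammals. In mammals, cells with impaired proteasomes raise their subunit genes together through the transcription factor NFE2L1.

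There were 9 groups of 3 libraries. CEF2 and CEF4 were primary embryonic fibroblasts, from Broiler Ross 308 and Israeli Baladi chickens. CF2 and CF4 carried the label immortalized fibroblasts, with the same respective breeds. SCF2 and SCF4 were spontaneously immortalized and grew without anchorage, and their breed labels contradict each other, so they are named by number. DF1 is an established immortal fibroblast line, given here with the breed East Lansing Line 0, and SDF1 its anchorage-independent counterpart. FAT was labelled fat, from Israeli Baladi, without saying whether it was tissue or cultured cells. Immortality was taken by the submitters as at least 120 population doublings. Each immortal group is 1 line, so its values describe that line. CEF and SCF libraries form 1 deposited set, and CF, DF1, SDF1 and FAT the other. A medium with oleic acid and lecithin is described for the second set without the groups that received it. No age or sex was given for the groups.

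Values are normalized reads, that is, reads divided by 1 factor per library, so levels of different genes are not compared. The recovered reads came to 12.3 to 28.7 M per cultured library and 4.61 to 10.4 M in FAT (M, 1e6 reads). The 10 fibroblast markers were detected in each group. They summed to between 49359 normalized reads, in a DF1 library, and 1.16e+06 in a CEF4 library. Markers of other cell types differed between groups. The 8 skeletal muscle markers summed to 11380 to 12945 in CEF2, 311 to 383 in CEF4 and at most 6.48 in the immortal lines. The 8 cartilage markers summed to 7335 to 8159 in CEF2, 254035 to 377797 in CEF4 and 11.6 to 43.2 in the immortal lines. Within groups the median coefficient of variation of the 37 genes was 1.81 to 2.53% in CF2, CF4 and SDF1 and 7.06 to 14.9% in the others. The design text calls the libraries biological replicates. The labels do not say which step was repeated, so p-values measure the spread between these libraries, which may be partly technical. DF1 replicate 3 stood apart from the other DF1 libraries, and the lowest correlation between DF1 libraries was 0.954.

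Proteasome gene expression, taken as summed reads, was lowest in FAT and in the primary cultures, and highest in the anchorage-independent lines SCF2 and SCF4. The 37 genes summed to 54918 ± 2333 normalized reads in CEF2 and 58285 ± 5133 in CEF4 (SD, n = 3 here and below). Both suspension lines lay well above this, at 126827 ± 7176 in SCF2 and 110159 ± 12528 in SCF4. The attached lines differed from each other, with 104187 ± 1537 in CF2 and 69100 ± 614 in CF4. DF1 held 91053 ± 2846, SDF1 72975 ± 742 and FAT 51273 ± 4252. As a share of all normalized reads the genes took 0.520 to 0.548% in CEF2 and 1.31 to 1.45% in SCF2, and their lowest share was 0.324% in a FAT library. In bulk RNA, fewer cells of a type and less RNA per cell cannot be told apart.

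Core and cap genes were placed alike in most groups. A gene's relative level is its log2 value against its mean over the 9 groups, and the figure given for a class is the median over its genes. Core genes stood at -0.49 in CEF2, -0.42 in CEF4, 0.63 in SCF2 and 0.40 in SCF4. Cap genes stood at -0.47, -0.37, 0.69 and 0.43 in the same groups. The remaining 10 genes had a smaller span, from -0.44 in FAT to 0.24 in SCF4. CF4 was the group in which core and cap differed most, with core genes at -0.45 and cap genes at -0.18. The mean ratio of summed core to summed cap reads was lowest there, at 0.562 ± 0.00289, and highest in FAT, at 0.758 ± 0.0609. The SCF2 libraries ranged from 0.539 to 0.695, and the lowest of them lay below every CF4 library.

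**Figure D1:**
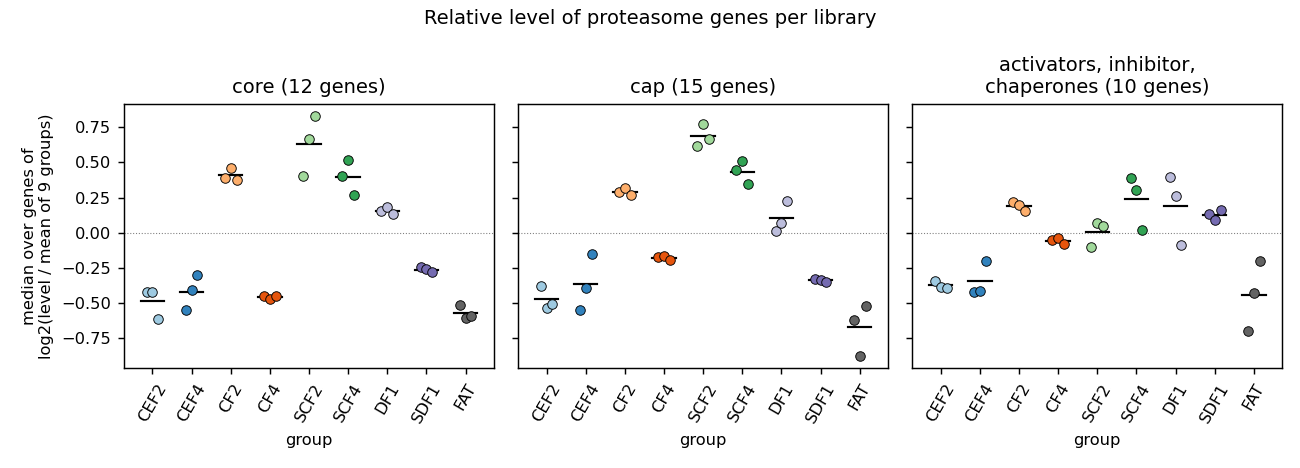
Relative level (log2 against the mean of the 9 groups, median over the genes of a class) for core, cap and remaining proteasome genes. Points are libraries and bars the mean of 3. Core and cap are below 0 in CEF2, CEF4, CF4, SDF1 and FAT and above 0 in CF2, SCF2, SCF4 and DF1.

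SCF2 was the highest group for 21 of the 37 genes, and FAT the lowest for 16 and CEF2 for 9. Among the cultured groups the lowest was CEF2 for 13 genes, CF4 for 9, SDF1 for 8 and CEF4 for 5. The fold between the highest and the lowest cultured group had a median of 2.54, from 1.45 for the core chaperone PSMG1 to 6.23 for the lid scaffold gene PSMD3. Over the 9 group means, the 666 pairs of genes had a median Pearson correlation of 0.563. Of the 37 genes, 17 had a correlation above 0.8 with the mean of the others. With FAT included, the activator PSME4 was the 1 gene below 0, at -0.54. Without FAT its value was -0.30, and PSMD6 went from 0.10 to -0.03 and PSMD7 from 0.08 to 0.60. These correlations are descriptions, since the points share libraries and scaling.

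**Figure D2:**
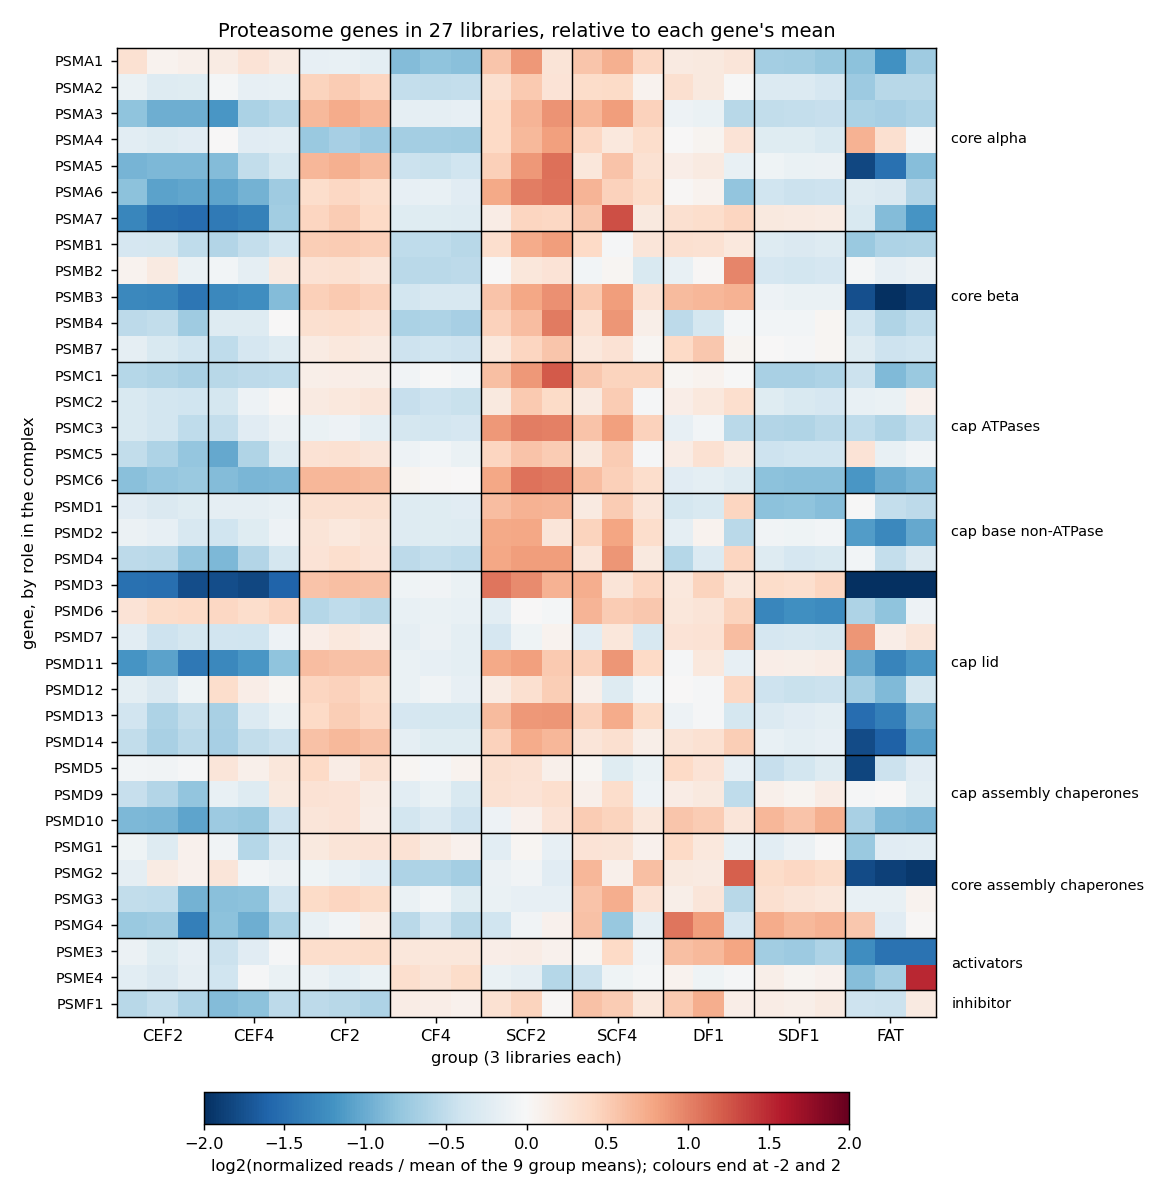
Log2 level of each of the 37 proteasome genes (vertical axis, by class) in each of 27 libraries (horizontal axis, by group), relative to the mean of that gene's 9 group means, with colours ending at -2 and 2. The CEF and FAT columns are mostly below the mean and the SCF2, SCF4 and CF2 columns mostly above it, while PSMD6, PSMA4 and PSME4 follow other patterns.

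The first comparison asks how the anchorage-independent lines differed from the primary cultures. Proteasome genes rose broadly in both. In SCF2 against CEF2, 31 of 37 rose and 1 fell, where 32.1% of all 12572 rows tested rose and 38.6% fell. The median log2 change was 0.91 over the members and -0.06 over all rows. In SCF4 against CEF4, 26 of 37 rose and 0 fell, where 30.8% of 12098 rows rose and 33.7% fell, and the medians were 0.69 and -0.02. For the 0 lower in line 4 with limma, 1 was lower at an unadjusted p under 0.05, and edgeR and DESeq2 on recovered reads gave 0. Between the lines, 25 genes rose in both, and 21.9% of rows did so. Changes are differences of mean log2(normalized reads + 1), tested with limma and adjusted over all rows (Benjamini-Hochberg, threshold 0.05).

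Each of the 7 alpha subunit genes rose in both lines, by a median of 1.58 in line 2 and 0.93 in line 4. PSMA6 had 1191, 1005 and 1028 normalized reads in CEF2 and 3583, 4290 and 4465 in SCF2. The libraries of the 2 groups did not overlap, and the change was 1.93 ± 0.11 (SE, adjusted p = 1.37e-06). PSMA7 read 1815, 1893 and 2992 in CEF4 and 7036, 11816 and 5575 in SCF4, where replicate 2 was the highest library of that gene. It rose by 1.83 ± 0.29 (adjusted p = 0.00053). PSMA1 changed least among the alpha genes that rose in line 2, by 0.40 ± 0.15, and it lost its call when any of CEF2 replicates 2 and 3 or SCF2 replicates 1 and 2 was left out (adjusted p = 0.076 to 0.13).

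Of the 5 beta subunit genes, 4 rose in each line. PSMB3, a structural beta subunit, read 1118, 1115 and 1010 in CEF2 against 4056, 4714 and 5189 in SCF2. It read 1118, 1162 and 1499 in CEF4 against 3927, 4906 and 3354 in SCF4. The suspension libraries lay far above the primary ones in both lines, and the changes were 2.10 ± 0.11 and 1.68 ± 0.17 (adjusted p = 6.26e-07 and 3.21e-05). PSMB7, which carries a trypsin-like active site, moved less. It read 2553, 2351 and 2204 in CEF2 and 3337, 3923 and 4258 in SCF2, a rise of 0.69 ± 0.11 (adjusted p = 0.000598). In line 4 it read 2029, 2296 and 2435 and then 3336, 3528 and 2975, a rise of 0.54 ± 0.11 (adjusted p = 0.00256).

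Of the 15 cap genes, 13 rose in SCF2 while 1 fell, and 11 rose in SCF4. The 5 ATPase genes rose in line 2 and 4 of them in line 4, with PSMC6 at 1.75 ± 0.10 and 1.37 ± 0.10. PSMC6 went from 1530, 1602 and 1638 reads in CEF2 to 4672, 5793 and 5698 in SCF2. Its separation from the primary culture was complete in both lines, since SCF4 read 4215, 3810 and 3488 and CEF4 1506, 1454 and 1467.

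The lid held both the largest rise and the only fall. PSMD3 read 2987, 2931 and 2445 in CEF2 and 17615, 16039 and 13466 in SCF2, and 2442, 2373 and 2753 in CEF4 and 13774, 10037 and 11316 in SCF4. It rose by 2.49 ± 0.12 and 2.20 ± 0.13 (adjusted p = 5.86e-07 and 1.39e-06), more than any other member in either line. PSMD11, another lid scaffold gene, rose by 1.93 ± 0.12 and 1.66 ± 0.17 (adjusted p = 1.91e-06 and 3.49e-05). PSMD14, the lid deubiquitinase, read 1080, 970 and 1038 in CEF2, 2092, 2530 and 2401 in SCF2, 957, 1077 and 1121 in CEF4 and 1787, 1893 and 1637 in SCF4. Its suspension libraries all exceeded its primary ones, by 1.18 ± 0.10 and 0.75 ± 0.11 (adjusted p = 1.06e-05 and 0.000302). PSMD6 went the other way in line 2, from 1349, 1433 and 1470 in CEF2 to 964, 1123 and 1080 in SCF2, a change of -0.43 ± 0.09 (adjusted p = 0.00258). In line 4 its change was 0.18 and did not pass (adjusted p = 0.131).

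The muscle and cartilage markers moved with these comparisons. The 8 muscle, 8 cartilage and 8 adipocyte markers tested fell in SCF2 against CEF2, and the 8 cartilage markers fell in SCF4 against CEF4. In every SCF2 library 6 muscle, 5 cartilage and 4 adipocyte markers were at 0, and in every SCF4 library 3 cartilage markers. The muscle markers ACTA1 and DES averaged at most 0.29 in SCF2. In SCF4 the cartilage markers ACAN, HAPLN1 and COL9A1 averaged at most 0.81. All of these passed the filter only through the primary cultures. A fall was their only possible call, so the counts of falling markers are descriptions. The 10 fibroblast markers together summed to 561834 to 639870 in CEF2 and 114119 to 135753 in SCF2, and to 796681 to 1.16e+06 in CEF4 and 69498 to 94091 in SCF4. Their part in the proteasome change was not tested. With values quantile-normalized, 30 members were higher and 1 lower in SCF2, and 29 higher and 0 lower in SCF4. That scaling raised the median of all rows by 0.26 and 0.19, and the members' median stood 0.71 and 0.61 above the median of all rows, against 0.97 and 0.71 as deposited. It also turned the split over all rows in line 2 from 4033 higher and 4849 lower to 5428 and 3681.

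In the authors' deposited tables of primary against anchorage-independent cells, 21 members were listed for each line. Over all shared genes their log2 values ran opposite to the fitted changes, with a correlation of -0.98 in each line. They were therefore read as primary minus suspension. In the authors' deposited table for line 2 the listed members had a median log2 value of -1.05 and 19 were called, and in that for line 4 the median was -0.84 and 21 were called. After reversal, the sign in the authors' deposited tables was that of the fitted change for 21 of 21 members in each line. The tables come from these same libraries and the reversal follows that correlation, so the shared signs are no separate support.

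The primary cultures differed little from each other. In CEF4 against CEF2, 3 genes were higher and 0 lower (PSMB4 by 0.41 ± 0.10, PSMD12 by 0.36 ± 0.10 and PSMD9 by 0.54 ± 0.14), where 18.2% of rows were higher and 22.6% lower. With all 27 libraries in 1 fit 1 was higher. Without CEF4 replicate 1, 8 were higher, and without CEF4 replicate 3, 1 was lower. For the 0 lower with limma, 0 were lower at an unadjusted p under 0.05 and 0 with edgeR and DESeq2. PSMD12 lost its call without CEF2 replicate 1 or 2 (adjusted p = 0.058 and 0.081).

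The change from primary to suspension was then compared between the lines. In the test of the difference, 4 genes had a higher change in line 4 and 11 a lower one, where 22% of 13001 rows were higher and 17.3% lower. Over both directions the members were called about as often as all rows, so the count is no result about them. The 3 genes higher by this test among the remaining class were the core chaperones PSMG1, PSMG2 and PSMG3, and the fourth gene was PSMD6. Among core genes 0 were higher and 3 lower, and among cap genes 1 was higher and 6 lower. PSMA5 had the lowest value, at -0.79 ± 0.23 (adjusted p = 0.0126). It rose by 1.72 ± 0.15 in line 2 and 0.93 ± 0.15 in line 4. These counts leaned on single libraries. The 11 became 5 without CEF2 replicate 2 or 3, CEF4 replicate 3, SCF2 replicate 2 or 3, or SCF4 replicate 3, and 6 without CEF4 replicate 2. The 4 became 1 without CEF4 replicate 2, and 2 without any CEF2 library, CEF4 replicate 3, SCF2 replicate 1 or 3, or SCF4 replicate 1. With quantile normalization 4 were higher and 5 lower, and with all 27 libraries in 1 fit 2 and 7.

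The lines labelled immortalized, CF2 and CF4, were set against the same primary cultures. They come from the other deposited set, so set and group cannot be told apart. Proteasome genes rose broadly in CF2, and were split in CF4. In CF2 against CEF2, 31 rose and 3 fell, with 34.5% of 12565 rows higher and 46.3% lower, and a median of 0.73 over members and -0.16 over all rows. In CF4 against CEF4, 15 rose and 9 fell, with 32.8% of 12103 rows higher and 40.3% lower, and medians of 0.13 and -0.10. The share of members that fell was below that of all rows in both lines, and the share that rose in CF4 was near it.

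PSMD3 was again the largest change. It read 12412, 12707 and 12529 in CF2 and 7905, 7930 and 7588 in CF4, above all 6 primary libraries. It rose by 2.18 ± 0.07 and 1.63 ± 0.07 (adjusted p = 4.45e-09 and 4.4e-07). In CF2, PSMA7, PSMB3 and PSMD11 rose by 1.88 ± 0.06, 1.83 ± 0.05 and 1.82 ± 0.08, and the active-site gene PSMB7 by 0.48 ± 0.06. In CF4 the alpha genes divided into 3 that rose, among them PSMA7 by 0.91 ± 0.18, and 3 that fell. PSMB7 was at -0.04 there and did not pass.

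PSMA1, PSMA4 and PSMD6 were lower in both immortalized lines. These were the only 3 such members, where 30.6% of 11887 rows were lower in both. Higher in both were 13 members, where 23.1% of rows were. For PSMA1, whose product is an alpha subunit, CEF4 read 1466, 1581 and 1490 and CF4 718, 752 and 731. The groups were far apart, and the change was -1.04 ± 0.06 (adjusted p = 2.6e-06). In line 2 it was -0.33 ± 0.07 (adjusted p = 0.00116). PSMA4, also an alpha subunit gene, read 2153, 2084 and 2124 in CEF2 and 1490, 1576 and 1498 in CF2, and 2509, 2140 and 2157 in CEF4 and 1564, 1555 and 1539 in CF4. It fell by 0.48 and 0.54 on the log2 scale, whereas both suspension lines lay above the primary cultures, with 3286, 3918 and 4400 in SCF2 and 3302, 2881 and 3164 in SCF4. PSMD6 read 751, 781 and 757 in CF2 and 1009, 1015 and 1006 in CF4, and fell by 0.89 and 0.54 (adjusted p = 2.12e-07 and 7.75e-05).

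The fall of part of the genes in CF4 depends on the scaling. CEF4 libraries held larger normalized totals than CF4 libraries. Divided by the library total, the members' median in CF4 against CEF4 was 0.67 beside 0.45 for all rows, since that scaling adds 0.54 to each gene. The falls smaller than this are those of PSMD6, PSMA2, PSMB2, PSMB4, PSMC2 and PSMD12, which turn above 0. That of PSMA4 is equal to it, and those of PSMA1 and PSMG2 are larger. With quantile normalization 20 rose and 9 fell, and the members stood 0.09 above the median of all rows, against 0.23 as deposited. In CF2 against CEF2 quantile normalization gave 29 and 3, with 0.40 above all rows against 0.89. The split over all rows changed from 3967 higher and 4877 lower to 5144 and 3826 in line 4, and from 4331 and 5820 to 5920 and 4198 in line 2. The 8 cartilage markers fell in both comparisons, and the 8 muscle markers in line 2, and their part was not tested. In every CF2 library 4 cartilage and 4 muscle markers were at 0, and in every CF4 library 2 cartilage markers. The other muscle markers averaged at most 0.44 in CF2. ACAN and COL9A1 averaged at most 0.33 in CF2, and with HAPLN1 and MATN1 at most 0.55 in CF4. All of these passed the filter only through the primary cultures. A fall was their only possible call, so the counts of falling markers are descriptions.

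**Figure D3:**
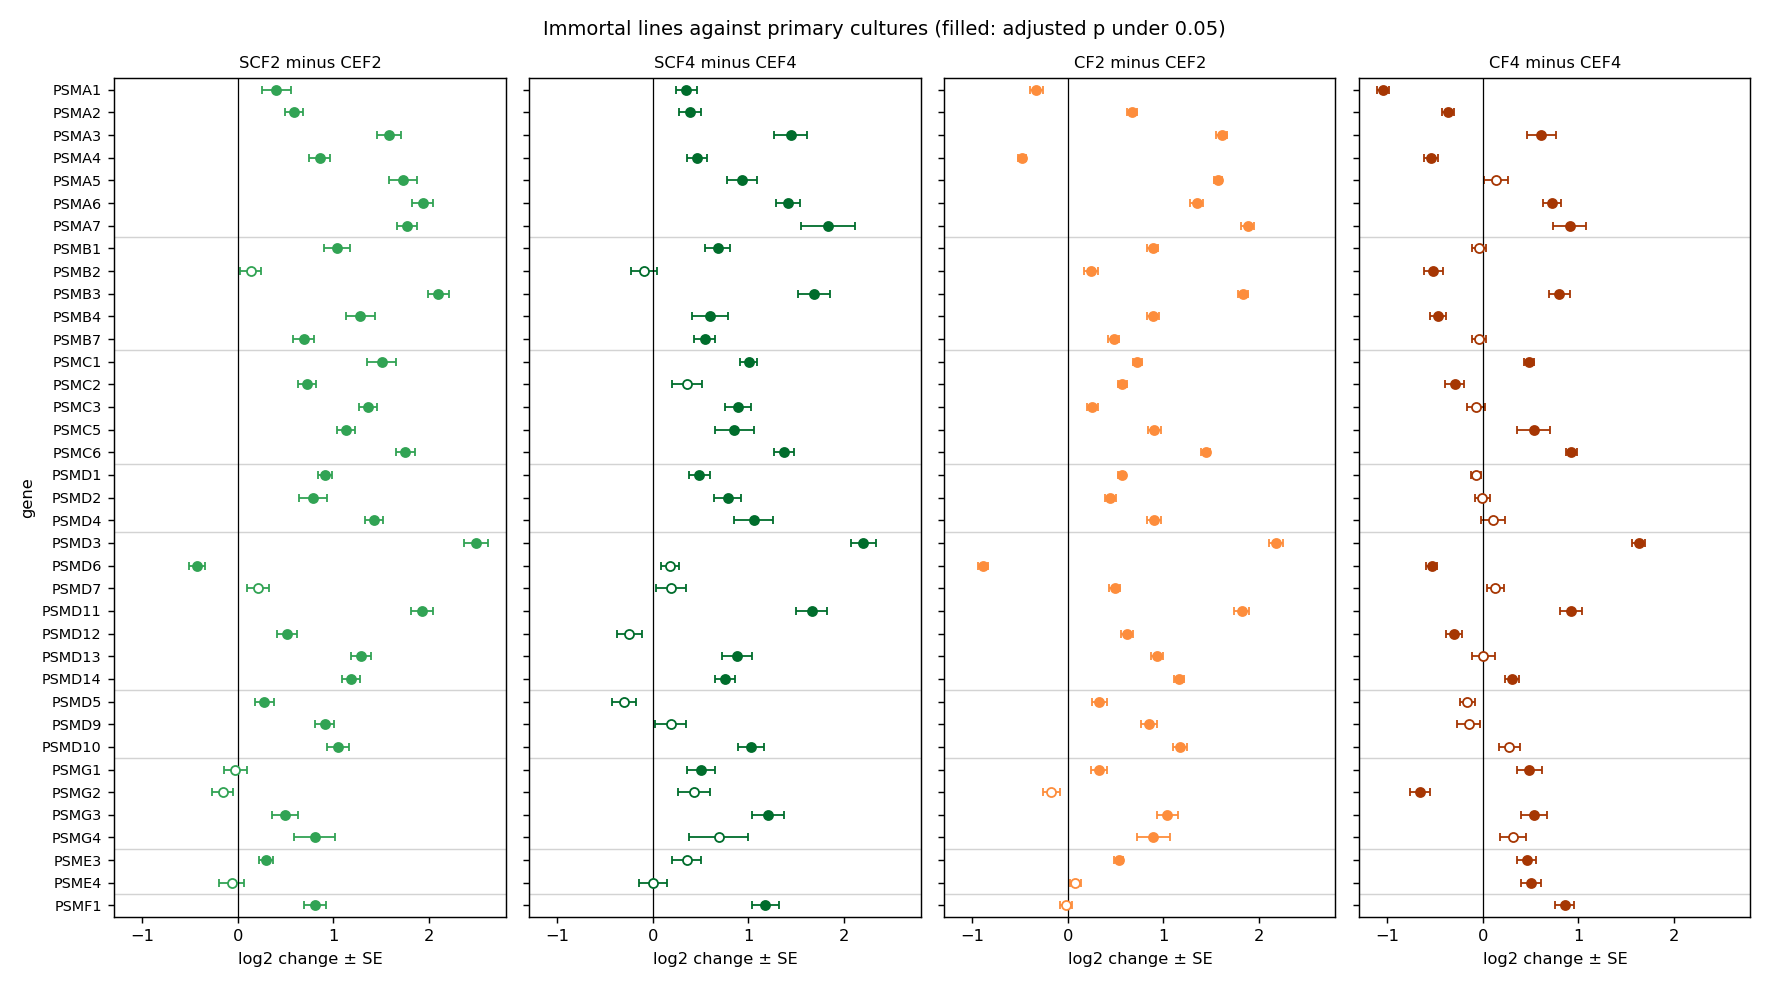
Log2 change with its standard error (horizontal axis) for each of the 37 proteasome genes (vertical axis) in SCF2 and CF2 against CEF2 and in SCF4 and CF4 against CEF4. Filled points have an adjusted p under 0.05. PSMD3 is farthest right in each panel, at 2.49, 2.18, 2.20 and 1.63, and PSMD6 is below 0 in all but SCF4 against CEF4.

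The next comparison sets anchorage-independent against attached immortal cells. For lines 2 and 4 it again crosses the deposited sets, which cannot be told apart from the groups. In SCF2 against CF2, 15 genes were higher and 4 lower, where 31.6% of 11085 rows were higher and 22.5% lower. With all 27 libraries in 1 fit 8 were higher and 1 lower, and the lower 4 became 2 without any one CF2 library. In SCF4 against CF4, 29 were higher and 1 lower, where 34.1% of 11174 rows were higher and 22.3% lower, with 0 lower when all 27 libraries were in 1 fit and 2 without SCF4 replicate 2. The member medians were 0.15 and 0.67, beside 0.07 and 0.11 for all rows.

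In line 2 the share of members that were higher was near that of all rows. Those higher included 5 of 12 core and 9 of 15 cap genes. PSMA4 led them at 1.34 ± 0.11 (adjusted p = 1.85e-05). The ATPase gene PSMC3 read 2514, 2564 and 2409 in CF2 and 4991, 5612 and 5540 in SCF2. No library of one group reached the other, and the change was 1.11 ± 0.07 (adjusted p = 8.08e-06). Another ATPase gene, PSMC1, rose by 0.78 ± 0.14. Of the 10 remaining genes, 1 was higher (PSMF1) and 3 were lower, PSMG1, PSMG3 and PSME3. The calls of PSMD7 and PSME3 were lost without any CF2 library (adjusted p = 0.11 to 0.15 and 0.056 to 0.064).

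In line 4 each of the 12 core genes and 12 of 15 cap genes were higher. PSMA1 led with 1.39 ± 0.09 (adjusted p = 1.05e-05), from the low CF4 values above to 1920, 2144 and 1744 in SCF4. PSMB4, a structural beta subunit gene, rose by 1.07 ± 0.17 and PSMA4 by 1.0 ± 0.08. The core chaperone gene PSMG2 read 446, 442 and 426 in CF4 and 1077, 731 and 1031 in SCF4, a rise of 1.09 ± 0.14 (adjusted p = 0.000224). The gene lower in SCF4 was PSME4, at -0.50 ± 0.11.

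SDF1 against DF1 lies within 1 deposited set, and went the other way. Here 0 genes were higher and 14 lower, where 18.8% of 11459 rows were higher and 12.8% lower. For the 0 higher with limma, 0 were higher at an unadjusted p under 0.05 and 0 with edgeR and DESeq2. The median was -0.32 over members and 0.09 over all rows. Of the core genes 5 of 12 were lower, of the cap genes 8 of 15, including 4 of 5 ATPase genes, and of the remaining genes only PSME3. PSMD6 changed most, from 1302, 1326 and 1520 in DF1 to 449, 474 and 466 in SDF1. The groups were widely separated, with a change of -1.57 ± 0.10 (adjusted p = 0.000812). PSMA1 went from 1484, 1496 and 1548 to 820, 809 and 772, a change of -0.91 ± 0.08 (adjusted p = 0.00141). PSMB3 went from 4244, 4369 and 4445 to 2549, 2508 and 2503, a change of -0.79 ± 0.08 (adjusted p = 0.00217). PSMD14 was lower by -0.52 ± 0.10 on the log2 scale (adjusted p = 0.0113), a call lost without any SDF1 library (adjusted p = 0.066 to 0.07).

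The count in DF1 depends on single libraries. Without DF1 replicate 3, 27 genes were lower and 2 higher (PSMB4 and PSMG2), where 33.3% of rows were lower and 40.1% higher. Without SDF1 replicate 1, 2 or 3, 8, 7 and 8 were lower. DF1 replicate 3 was the high library for the beta gene PSMB2, with 2479 reads against 1144 and 1282, and for PSMG2, with 1563 against 779 and 771. It was the low one for PSMA6, with 1230 reads against 2150 and 2231. The fibroblast markers rose along with this comparison, 8 of 10 being higher and 0 lower in SDF1 with a median of 1.92. The 6 endothelial markers summed to 166 to 2492 in DF1 and 49.5 to 56.5 in SDF1, and CDH5 among them stood at 917 ± 1330 in DF1 and 3.99 ± 0.866 in SDF1. The part of either list was not tested.

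The change to anchorage-independent growth in DF1 was then tested against that in lines 2 and 4, a test added after values were seen. Against line 2, 17 genes were lower in DF1 and 1 higher, where 19.6% of 11818 rows were lower and 18.9% higher. Against line 4, 31 were lower and 1 higher, where 19.1% of 11829 rows were lower and 19.8% higher. Each of the 12 core and 15 cap genes was lower against line 4, and 6 core and 9 cap genes against line 2. Both tests share the DF1 and SDF1 libraries. PSMA1, which was lower in SDF1 than in DF1 but higher in SCF2 and SCF4 than in CF2 and CF4, differed by -1.64 ± 0.18 and -2.31 ± 0.12 (adjusted p = 5.83e-05 and 9.79e-07). PSMD6 differed by -2.04 ± 0.12 and -2.29 ± 0.12. Lines 2 and 4 cross the deposited sets and DF1 does not, which cannot be told apart from the difference in line. The gene higher was PSMG3 against line 2, where without SCF2 replicate 3 there were 2, and PSME4 against line 4, where with all 27 libraries in 1 fit there were 0.

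**Figure D4:**
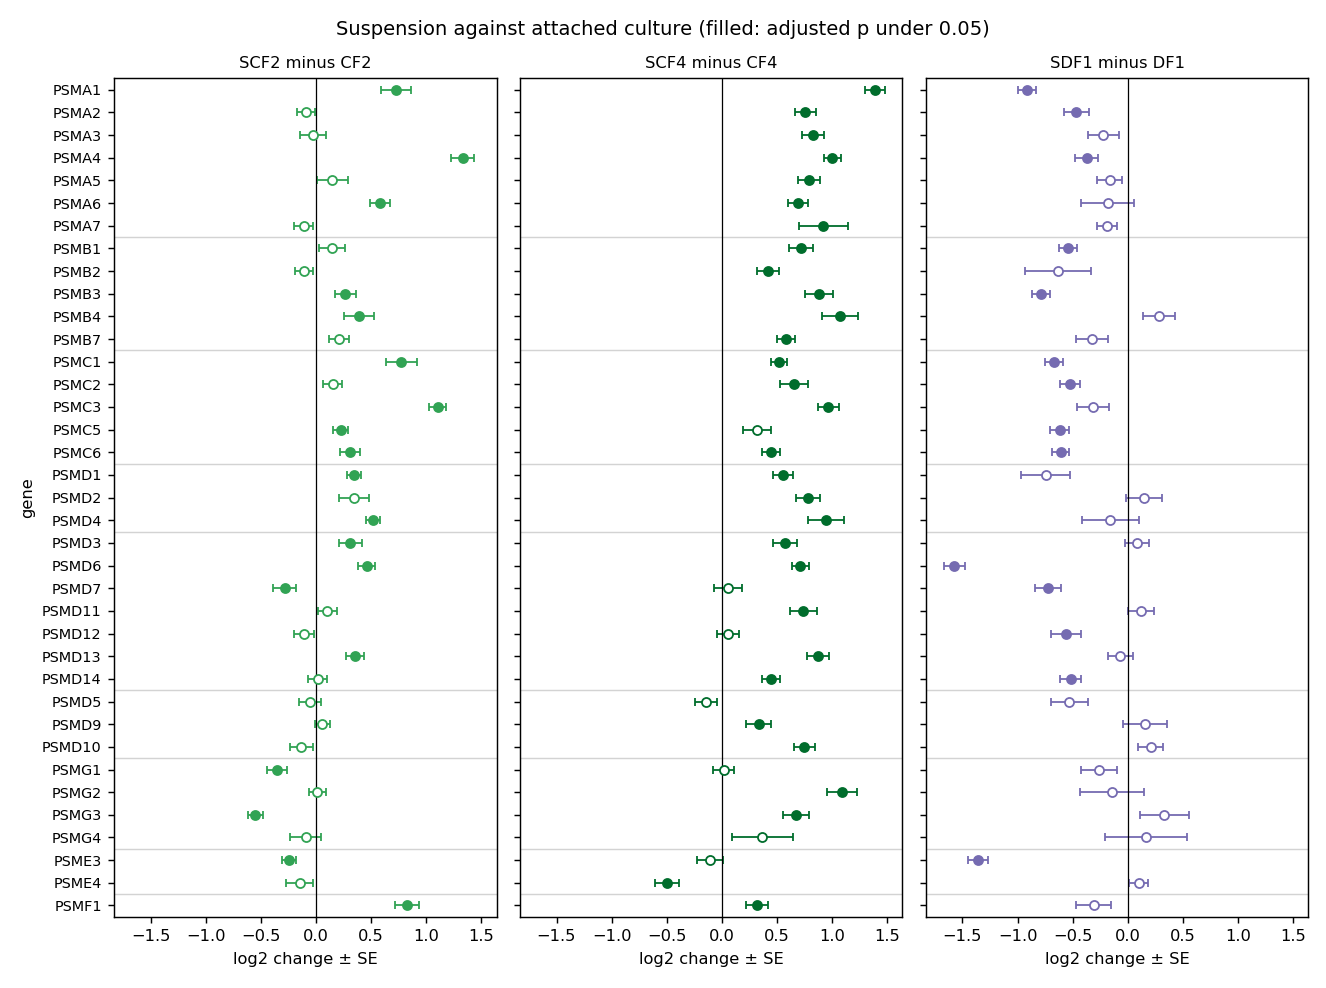
Log2 change with its standard error (horizontal axis) for each of the 37 proteasome genes (vertical axis) in SCF2 against CF2, SCF4 against CF4 and SDF1 against DF1. Filled points have an adjusted p under 0.05. Most points lie above 0 for line 4, with 29 called higher, and below 0 for DF1, with 14 called lower.

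FAT was set against CF4, the attached line with the same breed label and of the same deposited set. In it 3 genes were higher and 15 lower, where 42.7% of 12717 rows were higher and 25.8% lower. The median was -0.34 over members and 0.40 over all rows. Lid genes led, with 5 of 7 lower and a median of -0.93. PSMD3 read 869, 900 and 1236 in FAT, below every cultured library, and changed by -2.98 ± 0.18 (adjusted p = 2.32e-05). PSMB3 read 813, 685 and 735 against 2136, 2191 and 2200, a change of -1.55 ± 0.13 (adjusted p = 8.53e-05). PSMD14 read 436, 493 and 716 against 1332, 1280 and 1279, a change of -1.27 ± 0.20 (adjusted p = 0.00163).

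PSMA4 was higher in FAT, with 4038, 3121 and 2448 reads, by 1.01 ± 0.20 (adjusted p = 0.00441). PSMB2 and PSMC2 were also higher, by 0.43 ± 0.12 and 0.37 ± 0.13, but lost the call without any one CF4 library (adjusted p = 0.085 to 0.17), edgeR and DESeq2 on recovered reads gave 1 gene higher in all, and divided by the library total they turned below 0. Divided in that way 1 of 37 genes was above 0, and the medians were -1.22 over members and -0.48 over all rows. Quantile normalization gave 1 higher and 23 lower, and over all rows it turned 5426 higher and 3281 lower into 3645 and 4837. FAT held markers of many cells that CF4 lacked. Its 8 adipocyte markers summed to 72676 to 304268 and its 8 muscle markers to 23230 to 1.02e+06. The 8 macrophage markers summed to 13396 to 30072 in FAT against 90.1 to 93.3 in CF4. The 8 adipocyte and 8 macrophage markers tested were higher in FAT, and so were the 6 of 8 muscle markers that passed the filter. In every CF4 library 3 of these adipocyte and 2 of these macrophage markers were at 0, and these 6 muscle markers averaged at most 0.64. ADIPOQ and LY86 averaged 0.41 and 0.12 there. Such markers passed the filter only through FAT and could only be called higher, so these counts are descriptions. The part of the markers in the proteasome values was not tested.

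Of the alternative activators, PSME3 encodes a nuclear activator ring that opens the core without the cap. Its libraries read 3664, 3759 and 4134 in DF1 against 1481, 1455 and 1568 in SDF1, a change of -1.36 ± 0.09 (adjusted p = 0.000926). In FAT it read 1021, 862 and 867 against 2811, 2827 and 2826 in CF4, a change of -1.63 ± 0.13 (adjusted p = 8.06e-05). SDF1 and FAT were thus its low groups. Against primary cells it was 0.29 ± 0.08 higher in SCF2 (lost without CEF2 replicate 2, adjusted p = 0.06) and 0.35 in SCF4 without passing (adjusted p = 0.0699). It rose by 0.53 ± 0.05 in CF2 and 0.46 ± 0.10 in CF4.

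PSME4, a single-chain activator, did not pass in either suspension line against the primary cultures. It read 434, 413 and 445 in CEF2 and 460, 446 and 338 in SCF2, which overlapped, and its change was -0.07 without passing. In CF4 it read 634, 601 and 652, above the 380, 497 and 460 of CEF4, a rise of 0.50 ± 0.11 (adjusted p = 0.00335). In FAT its libraries scattered, with 278 and 314 against 1436 in replicate 3.

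PSMF1, the inhibitor gene, rose in both suspension lines. It read 564, 594 and 542 in CEF2 and 1021, 1134 and 842 in SCF2, and 456, 470 and 576 in CEF4 and 1251, 1179 and 972 in SCF4. The rises were 0.81 ± 0.12 and 1.18 ± 0.14 (adjusted p = 0.000376 and 9.7e-05). The attached lines differed for this gene, with 574, 563 and 538 in CF2 and 919, 909 and 878 in CF4. The change was -0.02 in CF2 without passing and 0.86 ± 0.10 in CF4.

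The 4 core assembly chaperones had a median change of 0.23 in SCF2 against CEF2, beside 1.16 for the 12 core genes. PSMG3 rose by 0.49 ± 0.13 in SCF2 and 1.21 ± 0.17 in SCF4 (adjusted p = 0.00989 and 0.000251), and read 481, 470 and 469 in SCF2 and 783, 871 and 640 in SCF4. PSMG4 read 87.2, 89.0 and 56.7 in CEF2 and 111, 138 and 155 in SCF2, a rise of 0.80 ± 0.21, and 82.2, 74.1 and 93.5 in CEF4 and 219, 86.3 and 128 in SCF4, where 0.69 did not pass. PSMG1 read 345, 307 and 388 in CEF2 and 315, 377 and 328 in SCF2, which overlapped, and rose by 0.51 ± 0.15 in SCF4 (lost without CEF4 replicate 2 or SCF4 replicate 1, adjusted p = 0.066 and 0.056). PSMG2 did not pass in either, at -0.16 and 0.43, and was lowest in FAT, with 196, 186 and 179. The 3 cap chaperone genes rose in line 2, and 1 of 3, PSMD10, in line 4.

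PSMD3 and PSMD6 were also set beside their neighbours in the genome, a choice made after their values were seen. Gene order was taken from the RefSeq annotation of GRCg7b, which is not the build of these files. The 10 nearest neighbours of PSMD3 with rows tested had a median log2 change of 1.41 in SCF2 and 1.58 in SCF4 against the primary cultures, and 8 and 9 of them rose. In CF2 and CF4 the medians were 1.57 and 1.39, with 8 and 9 higher. Of all rows, 32.1% rose in SCF2, 30.8% in SCF4, 34.5% in CF2 and 32.8% in CF4. NR1D1, a circadian repressor gene, was the 1 that fell in each. It averaged only 9.70 normalized reads in CEF2 and 18.4 in CEF4. ZPBP2 and IKZF3 averaged at most 0.19 in either primary culture, and CSF3 4.88 in CEF2 and 0 in CEF4. The log2 changes of these neighbours rest on few reads. ZPBP2 and IKZF3 in both lines, and CSF3 in line 4, passed the filter only through the immortal libraries. They could only be called higher, and they are included in the counts, medians and ranks given here. Among the 37 members, the median over neighbours was the highest for PSMD3 in SCF2, CF2 and CF4 and ranked 2 in SCF4. Members other than PSMD3 also tended to change with their neighbours against the primary cultures. Without PSMD3, changes had Pearson correlations with the neighbour medians of 0.33 in SCF2 and 0.47 in SCF4. In CF2 and CF4 these were 0.38 and 0.49. In FAT against CF4 the neighbour median was -0.70, and PSMD3 fell there too. Among these neighbours ZPBP2 and CSF3 were at 0 in FAT and could only be called lower. In SDF1 against DF1 the neighbours did not go with PSMD3. Their median was again the highest among the 37 members, while PSMD3 was not called higher.

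**Figure D5:**
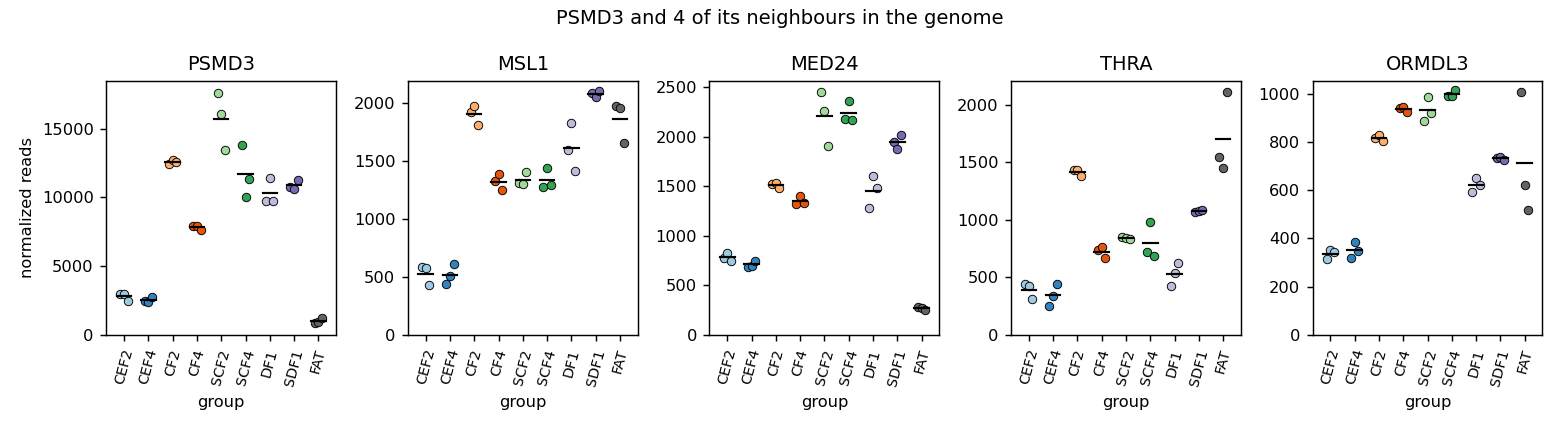
Normalized reads per library (vertical axis, points) in the 9 groups for PSMD3 and for MSL1, MED24, THRA and ORMDL3, the 4 of its 10 neighbours with most reads. For PSMD3 the primary libraries lie between 2373 and 2987 and the immortal ones between 7588 and 17615.

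The neighbours of PSMD6 did not follow it throughout. Of its 10 neighbours, 2 rose and 7 fell in SCF2 (median -1.09) and 1 rose and 8 fell in CF2 (median -1.0), each against CEF2. In CF4, 4 rose and 5 fell (median -0.14), and in SDF1, 0 of 9 tested were higher and 2 lower (median -0.23). Of all rows, 32.1% rose and 38.6% fell in SCF2, and 34.5% and 46.3% in CF2. In CF4 these shares were 32.8% and 40.3%, and in SDF1 18.8% and 12.8%. SYP, at or near 0 in SCF2, CF2 and CF4, passed the filter only through the primary cultures and could only be called lower. THOC7, a gene for an mRNA export factor, was singled out because its values were low beside those of PSMD6. It read 995, 922 and 833 in CEF2, 400, 380 and 377 in CF2 and 426, 460 and 559 in SCF2. In DF1 it read 1201, 1101 and 1267 and in SDF1 347, 330 and 296. In CF2, SCF2 and SDF1 the libraries of both genes were low against CEF2 and DF1. THOC7 changed by -0.93 in SCF2, -1.24 in CF2, -0.82 in CF4 and -1.87 in SDF1, each against its attached or primary counterpart, and by -0.20 in SCF4 without passing. In the same annotation 11 of the 37 members overlap another protein-coding gene. They are PSMA1, PSMA6, PSMA7, PSMB7, PSMC2, PSMC3, PSMD1, PSMD14, PSMF1, PSMG3 and PSMG4. The sources used here do not state whether reads were counted by strand, so their values are uncertain to that extent.

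Other genes of the pathway are read against the same shares of all rows, 32.1% higher and 38.6% lower in SCF2 against CEF2 and 30.8% and 33.7% in SCF4 against CEF4. Of 12 proteasome-associated genes, 7 rose and 3 fell in SCF2 against CEF2, and 5 rose and 2 fell in SCF4 against CEF4. POMP, the maturation factor of the core, rose by 1.70 and 1.36 in these, and by 1.78 and 1.0 in CF2 and CF4. USP14, a deubiquitinase of the cap, rose by 1.17, 0.93, 1.19 and 1.03 in the same order. In SDF1 against DF1, 0 of the 12 were higher and 6 lower, where 12.8% of rows were lower, and in FAT 5 were higher and 5 lower. Of 11 regulators of proteasome genes and of substrate extraction, 4 rose and 2 fell in SCF2 and 3 rose and 4 fell in SCF4. These are near the shares of all rows, except that fewer fell in SCF2. NFE2L1 itself was at 0.05 and 0.04 in the suspension lines, without passing, and rose by 0.85 in CF2 and 0.25 in CF4. It was lower in SCF2 than in CF2, at -0.80, and at -0.21 in SCF4 against CF4 without passing. With quantile normalization NFE2L1 passed in SCF4 against CF4, at -0.37, and its rise in CF4 was 0.61. These are RNA values, and the activity of its protein was not tested.

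Of 8 genes for ubiquitin, its first enzyme or deubiquitinases, 2 rose and 2 fell in SCF2 and 2 rose and 3 fell in SCF4. The ubiquitin gene UBB rose by 0.87 and 0.86, and the deubiquitinase gene OTUB1 by 0.86 and 0.93. The deubiquitinase genes UCHL1 and USP5 fell in both, and the first enzyme gene UBA6 in SCF4. Of 8 ubiquitin shuttle factors, 3 rose in SCF2 and 4 in SCF4 and 0 fell, with SQSTM1, a cargo receptor of autophagy, at 2.64 and 1.49. The 8 genes of the CCT chaperonin, a folding complex, had 3 higher and 1 lower in SCF2 and 5 higher in SCF4. In SDF1 5 of 8 were lower, with a median of -0.69, and in FAT 8 of 8, with a median of -1.28. Of the 63 cytosolic ribosomal protein genes, 17 rose and 2 fell in SCF2, 17 rose and 7 fell in SCF4, and 60 were higher in FAT. The share that rose was below that of all rows in SCF2 and SCF4, and in FAT 42.7% of rows were higher. Of 3 muscle ubiquitin ligase genes, 2 were higher in FAT, TRIM63 by 7.04 ± 1.44 and FBXO32 by 3.31 ± 0.75. The muscle content of the FAT libraries was uneven, with muscle marker sums from 23230 to 1.02e+06.

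PSMC3IP, the recombination factor taken in by its name, read 90.5, 77.8 and 59.5 in CEF2 and 284, 300 and 314 in SCF2, a rise of 1.98 ± 0.16. It rose by 1.21 ± 0.20 in SCF4, 2.17 ± 0.14 in CF2 and 1.16 ± 0.16 in CF4. In FAT it read 69.6, 49.3 and 25.9, below the 283, 273 and 287 of CF4, a change of -2.63 ± 0.36.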

How the data were processed

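RNA of 27 chicken libraries was sequenced as paired-end reads, per the labels' protocols. Bowtie2, RSEM, DESeq2 and galGal6 are named in the submitters' processing notes, without versions or roles. The deposited normalized signal table has 14161 rows by symbol. It is named as TPM, but its columns do not sum to a fixed total. Values of each library are whole multiples of 1 amount (100% of rows, tolerance 0.01), so each was taken as a read number scaled by a factor of its library, and the reads were recovered. A symbol that a spreadsheet turned into a date, in 17 rows, was not named. The authors' deposited count table (24356 genes, 12 libraries, 23.4 to 53.4 M counts, M being 1e6) carries identifiers that matched no gene in the tables used here, so only its totals were used and the planned edgeR fit of those counts was not run. The authors' deposited comparison tables hold log2 fold changes and adjusted p-values, and were quoted as they stand.

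Each comparison was fitted with limma 3.58.1 (trend and robust) in R 4.3.3 on log2(normalized reads + 1). It used only the libraries of the groups compared and rows with at least 1 normalized read in 3 or more of them. Benjamini-Hochberg adjustment ran over all rows tested, at 0.05. Fold changes on this scale understate changes of low genes. Alternatives were quantile normalization, a pseudocount of 0.1, no filter, a minimum of 10, all 27 libraries in 1 fit, a replicate block, edgeR 4.0.16 and DESeq2 1.42.0 on recovered reads, and leaving out each library. The fits were tested on simulated data. Replicate numbers did not pair libraries (correlations from -0.625 to 0.262). Members, gene lists and tests were chosen with earlier results of these data known. Genes are named by rule: the active-site subunit PSMB7, PSMD14, activators, inhibitor and core chaperones always, and up to 4 called members per direction and comparison with the largest change and no overlap. Gene order came from RefSeq's GRCg7b annotation. Summaries were made in Python 3.11.15 (pandas 2.3.3, numpy 2.4.6) and figures with matplotlib 3.10.9.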

Additional observations from a re-analysis of the deposited data

Results flagged for a closer look

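The change from primary to anchorage-independent cells differed between lines 2 and 4, by a test of the difference itself, for 15 of the 37 genes, 4 higher and 11 lower. Over both directions that is close to the share of all rows, of which 22% were higher and 17.3% lower. By direction, the members were called higher less often and lower more often than all rows. The 11 became 5 when any of 6 single libraries was left out. Those with the largest log2 values, as line 4 minus line 2, were the core chaperones PSMG3 at 0.71, PSMG2 at 0.59 and PSMG1 at 0.53 and the lid gene PSMD6 at 0.61, which changed more upward in line 4. PSMA5 at -0.79, PSMD12 at -0.76, PSMD9 at -0.72 and PSMB4 at -0.68 changed more upward in line 2.

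The change from attached to anchorage-independent cells differed between DF1 and line 2. As DF1 minus line 2, the log2 values were 0.88 for PSMG3, -2.04 for PSMD6, -1.71 for PSMA4, -1.64 for PSMA1 and -1.45 for the ATPase gene PSMC1. Against line 4 they were 0.60 for the activator PSME4, -2.31 for PSMA1, -2.29 for PSMD6, -1.67 for PSMB3 and -1.37 for PSMA4. These were picked by size among the called genes, and the deposited set cannot be told apart from the difference in line.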

How the results depend on the processing

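Under the refitted alternatives no called gene changed sign. Of the values of the 109 gene results named by rule, 130 lost the call and 1564 kept it. Division by the library total, which shifts all genes of a comparison alike, turned 6 lower genes in CF4 against CEF4 and 2 higher ones in FAT against CF4. With all 27 libraries in 1 fit, the difference between lines had 2 higher and 7 lower genes (4 and 11 in the report), CEF4 against CEF2 had 1 higher, SCF2 against CF2 had 8 higher and 1 lower, SCF4 against CF4 had 0 lower, and the DF1 change against that in line 4 had 0 higher. Quantile normalization gave 5 lower for the difference between lines, and 1 higher and 23 lower in FAT. The replicate block, though numbers do not pair libraries, gave 2 higher and 7 lower for the difference between lines, 8 lower in SDF1 against DF1 and 1 higher in FAT. edgeR gave 5 lower for the difference between lines, and edgeR and DESeq2 1 higher in FAT. The cause was not tested.

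With levels as shares of the library total, the median relative level of the 37 genes moved to -0.59 in CEF2 from -0.46, to -0.68 in CEF4 from -0.39, to 0.37 in CF2 from 0.29, to -0.028 in CF4 from -0.25, to 0.49 in SCF4 from 0.37, to 0.25 in DF1 from 0.16, to -0.16 in SDF1 from -0.25 and to -1.24 in FAT from -0.59.

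Leaving out 1 library at a time, the numbers higher and lower ranged from 28 to 31 and 1 to 1 in SCF2 against CEF2, 23 to 28 and 0 to 0 in SCF4 against CEF4, 1 to 4 and 5 to 13 in the difference between lines, 2 to 8 and 0 to 1 in CEF4 against CEF2, 31 to 31 and 3 to 4 in CF2 against CEF2, 14 to 19 and 7 to 10 in CF4 against CEF4, 10 to 18 and 2 to 6 in SCF2 against CF2, 27 to 30 and 1 to 2 in SCF4 against CF4, 0 to 2 and 7 to 27 in SDF1 against DF1, and 1 to 4 and 10 to 20 in FAT against CF4. The DF1 change ranged from 1 to 2 and 14 to 22 against line 2, and from 1 to 1 and 23 to 35 against line 4. The libraries that moved a count by over 1.5 times are named in the report. FAT libraries are shallow, with 1 read worth 1.52 to 3.16 normalized reads against 0.294 to 0.725 in cultured ones, but no proteasome gene was near that limit.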
